A study of Rattus norvegicus with 36 samples.

Results

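The genes described here encode the structural matrix of cartilage, and they were measured in thyroid tissue from rats that had received radioiodine. The group was chosen by name: Col2a1, Acan, Comp, Matn1, Col9a1, Col9a2, Col11a2, Col10a1 and Hapln1, with every array probe that maps to them. These 9 genes were covered by 14 probes, out of 15155 named genes and 30367 probes on the array. The animals were adult male Sprague Dawley rats injected intravenously with 131I in saline, 4 rats in each of 8 groups. The lower activities were 9, 88, 170 and 260 kBq, the higher ones 340, 760, 1300 and 4700 kBq, and 4 mock-treated rats were the controls (0 kBq). The thyroids were excised 24 h later, and total RNA from each rat was hybridized to 1 Agilent 1-colour array, so n = 36 arrays. All groups shared strain, sex and time, and the irradiated groups were injected in order of activity with the controls last, so that activity and place in that order cannot be told apart.

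Cartilage is a firm tissue in which chondrocytes lie in a matrix of their own making. Thin fibrils of type II and type XI collagen, coated with type IX collagen, hold large aggregates of the proteoglycan aggrecan, which is fixed to hyaluronan by a link protein. Matrilins and cartilage oligomeric matrix protein connect these parts, and type X collagen marks chondrocytes that have become hypertrophic. The thyroid itself is built of follicles that make thyroid hormone. In the rat its lobes lie against the trachea and the lower larynx, whose walls are stiffened by cartilage.

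The 9 genes lie at separate places in the rat genome except for chromosome 5, which carries Matn1 and Col9a2, and chromosome 20, which carries Col11a2 and Col10a1. In the build GRCr8, Col2a1 occupies chr7:130977561-131006627, Acan chr1:142390951-142453779 and Comp chr16:19081172-19089548. Matn1 lies at chr5:148401364-148411256 and Col9a2 at chr5:139892798-139910131. Col9a1 lies at chr9:34081364-34164552, Col11a2 at chr20:4788829-4818492, Col10a1 at chr20:39737536-39744518 and Hapln1 at chr2:22366967-22431709.

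Because most of these genes moved together between rats, as described below, the bases before their start sites are given for 3 of them: Col10a1, which had the steepest slope against Col2a1, Hapln1, and Col11a2, which followed the others least clearly apart from 1 probe of Col9a1. RefSeq promoters (GRCr8) were found for 7 of the 9 genes, all but Col2a1 and Matn1. The 250 bases before the start were searched for ACAAAG and ACAATG, short forms of the letters that SOX proteins such as the chondrocyte regulator SOX9 bind, and for the TATA box letters TATAAA, on both strands. Capitals mark the matches. The stretches are chr20:39737286-39737535 on the plus strand for Col10a1, chr2:22366717-22366966 on the plus strand for Hapln1 and chr20:4817649-4817898 on the minus strand for Col11a2.
Col10a1: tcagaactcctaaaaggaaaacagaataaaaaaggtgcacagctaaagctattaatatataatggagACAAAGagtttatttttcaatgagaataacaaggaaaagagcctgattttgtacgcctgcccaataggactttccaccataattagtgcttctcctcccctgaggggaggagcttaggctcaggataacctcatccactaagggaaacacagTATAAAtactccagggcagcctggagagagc
Hapln1: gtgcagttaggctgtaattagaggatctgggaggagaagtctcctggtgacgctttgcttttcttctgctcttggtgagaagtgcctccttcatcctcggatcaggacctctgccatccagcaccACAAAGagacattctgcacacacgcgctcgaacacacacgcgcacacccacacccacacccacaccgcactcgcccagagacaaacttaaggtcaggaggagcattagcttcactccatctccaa
Col11a2: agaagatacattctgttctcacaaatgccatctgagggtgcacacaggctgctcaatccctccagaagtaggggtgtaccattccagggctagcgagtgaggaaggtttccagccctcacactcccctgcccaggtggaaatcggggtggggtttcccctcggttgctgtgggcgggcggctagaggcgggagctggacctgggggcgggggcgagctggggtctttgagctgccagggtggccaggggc
ACAAAG was found in Col10a1, 183 bases before the start, and in Hapln1, 125 bases before it. It was present in 16.3% of all 33469 promoters of this length, and ACAATG, found in 11.1%, was in none of the 7. The Col11a2 start used in that table lies inside the span of the gene given above, so its stretch precedes a start other than the outermost one. TATAAA stood 31 bases before the start of Col10a1 and in no other of the 7 genes, against 12.9% of all promoters. Neither SOX form was found in Col11a2, Acan, Comp, Col9a1 or Col9a2, which says only that these letters are not in these windows.

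Levels are given as log2 of the background-subtracted intensity minus that of the 75th percentile of the same array, so that 0 is the brightness of the probe at that percentile. Each gene was represented by its brightest probe on average, its lead probe. A level describes 1 probe across rats and is not comparable between genes. The scanner software called the lead probes of Col2a1, Comp, Col9a2 and Col11a2 well above background on 36 of 36 arrays, Col9a1 on 35, Matn1 on 31, Col10a1 on 30, and Acan and Hapln1 on 20 each. On the remaining arrays the transcript was dim, and its level there is only an upper bound. Over the series, the 75th percentile lay between 1564 and 4288 intensity units, between 62.6% and 91.0% of the probes were well above background, and 0 spots were saturated.

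The signal of follicular genes also differed between rats, and it is given before the cartilage genes are read. Iyd, the deiodinase that recovers iodide in follicular cells, fell into 2 separate ranges. In 18 rats it lay between -8.21 and -3.28, and in the other 18 between -0.26 and 1.45. Tg, which encodes the hormone precursor thyroglobulin, was between 6.78 and 7.48 in the rats with high Iyd and between -4.51 and 6.83 in those with low Iyd. The Iyd probe was not well above background on 14 arrays, all with low Iyd. Low Iyd was found in 1 control rat, 3 rats each at 9 and 340 kBq, 1 at 4700 kBq and 2 in each remaining group. In whole tissue, fewer cells of a type and less RNA per cell cannot be told apart.

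Col2a1, the main fibrillar collagen of cartilage, varied over a 126-fold range between rats, from -5.32 to 1.65 with a median of -2.27. In the 4 controls it was -5.32, -1.41, 1.65 and -2.47, so that the lowest and the highest of all 36 levels were both found in unirradiated rats. At 9 kBq the rats had 0.81, 0.17, -1.32 and 0.48, a narrow range inside that of the controls. At 88 kBq the levels were -1.98, 0.87, -4.87 and -4.93. At 170 kBq they were -0.93, -3.17, -4.29 and -2.07. The 88 kBq group thus held 1 high rat, 1 intermediate rat and a low pair, while the 170 kBq rats formed a more even series. At 260 kBq the rats had -4.40, -5.20, 0.44 and 1.41, at 340 kBq 0.79, 0.84, -2.99 and -4.40, and at 760 kBq 0.96, 0.34, -4.71 and -5.21. Each of these groups split into 2 high and 2 low rats with nothing between. At 1300 kBq the levels were -3.16, 0.66, -0.99 and -4.37. At 4700 kBq they were -5.08, -4.87, -2.89 and -4.69, all low, and all 4 lay inside the range of the controls.

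**Figure D1:**
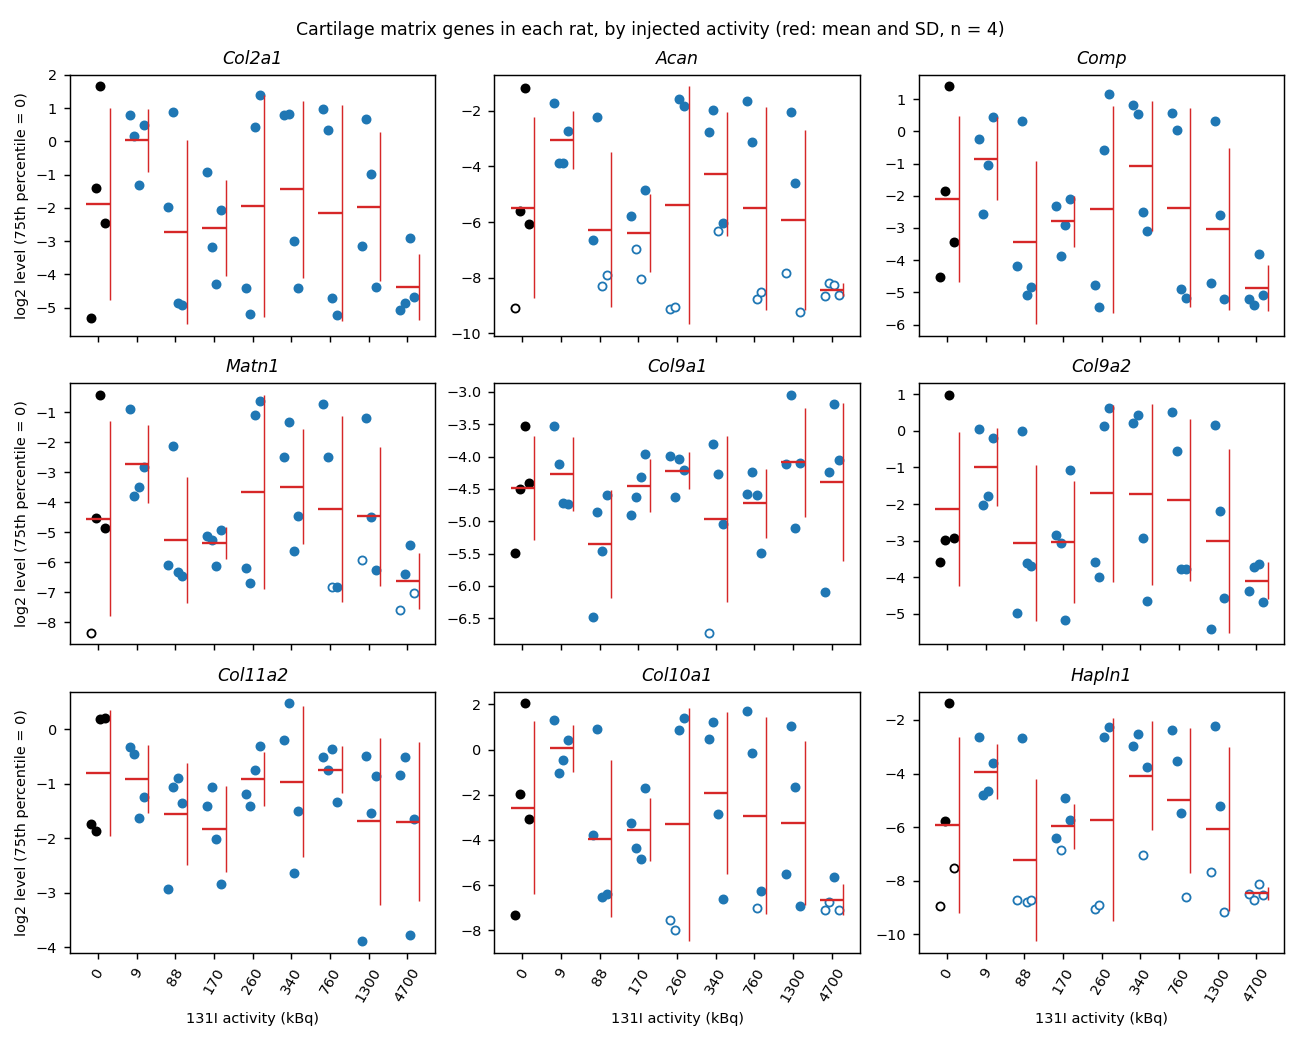
Log2 level of the lead probe of each gene (vertical axes, 0 is the 75th percentile of the array) in each rat, by injected activity in kBq. Points are rats (controls black, irradiated blue, open where not well above background), red lines are the mean and SD of 4 rats. In Col2a1 the 4 controls span -5.32 to 1.65, and the rats at 9 and 4700 kBq lie within that span.

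Ordered by group mean, Col2a1 was highest at 9 kBq (0.03 ± 0.94, SD, n = 4) and lowest at 4700 kBq (-4.38 ± 1.004). The other 7 means lay between -2.73 and -1.44, with SDs of 1.44 to 3.34. Every one of the 8 steps between neighbours in this order was smaller than the larger of the neighbouring SDs, the largest step being 1.65. The same order at the ends, 9 kBq highest and 4700 kBq lowest, was found for Acan, Comp, Matn1, Col9a2, Col10a1 and Hapln1. By their lead probes, Col9a1 was highest at 1300 kBq and lowest at 88 kBq, and Col11a2 highest at 760 kBq and lowest at 170 kBq. The other Col9a1 probes were both lowest at 4700 kBq, and highest at 9 kBq in 1 and at 340 kBq in the other. The second Col11a2 probe was highest at 260 kBq and lowest at 4700 kBq. In Acan and Matn1, 1 of the 8 steps exceeded the larger neighbouring SD, and in the remaining genes none did.

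Type X collagen also differed widely. Col10a1 ran from a bound of -8.00 in a 260 kBq rat to 2.04 in control rat 3, and the controls alone had -7.30, -1.95, 2.04 and -3.07. At 260 kBq its levels were -7.57, -8.00, 0.89 and 1.41, with the first 2 rats near the bottom of the series and the other 2 near the top. In the low pair the lead probe was not well above background, while the second probe was (-6.88 and -7.12). At 4700 kBq they were -7.09, -6.75, -5.63 and -7.12, with 1 of 4 rats well above background. The 2 probes of Col10a1 followed each other closely (r = 0.97 over 36 rats).

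The genes of the aggrecan aggregate split the rats in the same manner. Acan, the large chondroitin sulfate proteoglycan, reached -1.19 in control rat 3 and was not well above background in 16 rats. In the other 3 controls it was -9.08, -5.60 and -6.07, and at 4700 kBq it was -8.66, -8.20, -8.25 and -8.62, dim in all 4. Hapln1, the link protein that fixes aggrecan to hyaluronan, was -8.93, -5.77, -1.38 and -7.53 in the controls. At 88 kBq it was -8.71, -2.67, -8.78 and -8.71, so that rat 2 stood far above its group, whose other members were not above background.

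The matrix glycoproteins and the type IX collagen chain Col9a2 showed the same rats at the top. Comp, a thrombospondin family protein that binds collagen fibrils and is also made in tendon, ranged from -5.47 to 1.39. Matn1, the matrilin of tracheal and other cartilage, ranged from -8.35 to -0.44. Col9a2 ranged from -5.41 to 0.99. Control rat 3 had the highest level of 7 of the 9 lead probes, and the 6 highest rats for all 9 genes always included it. Control rat 1 was among the 6 lowest for 6 of 9 genes, as were rat 2 at 260 kBq and rat 1 at 4700 kBq.

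**Figure D2:**
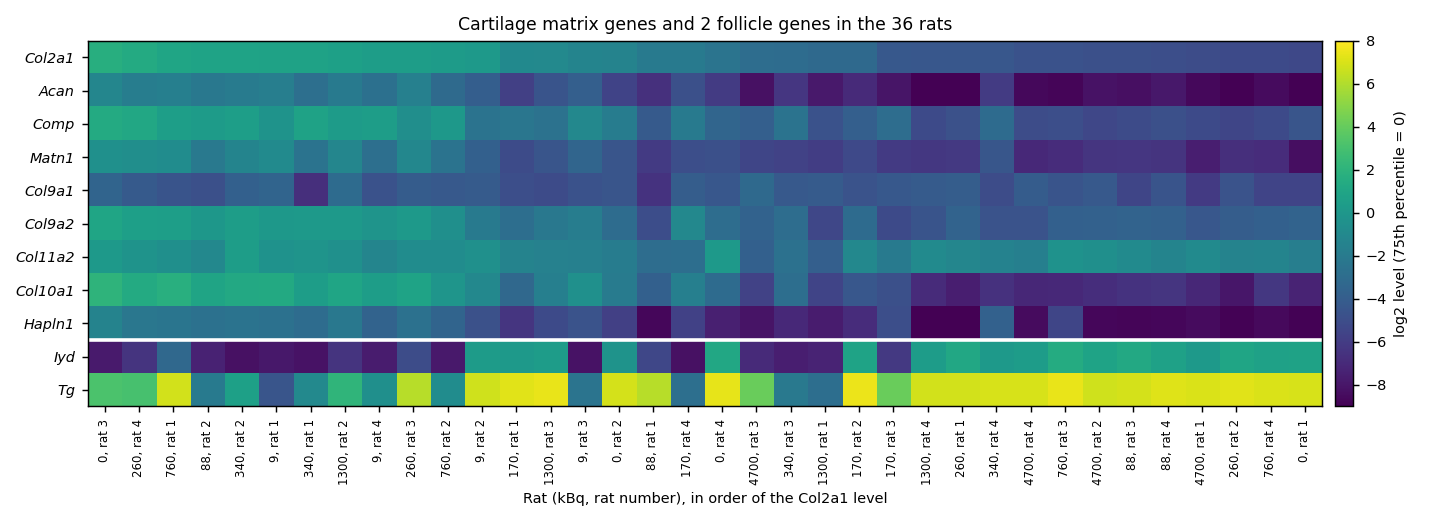
Log2 levels (colour, 0 is the 75th percentile of the array) of the 9 cartilage matrix genes and of the follicle genes Iyd and Tg, below the white line, in 36 rats ordered by Col2a1. Colours compare rats within a row and not genes. Control rat 3 (Col2a1 1.65) is at the left and control rat 1 (-5.32) at the right.

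The spread within groups was large by the standard of the array. The median SD within groups of the 9 lead probes was 2.28, against 0.67 for all probes, and Col10a1 had the highest of the 9 (3.37, above 99.3% of all probes). Among the lead probes, Col9a1 (0.82) and Col11a2 (1.06) varied least, at the 65.1 and 80.2 percentiles. The other Col9a1 probes had SDs of 1.61 and 1.71, at the 93.1 and 94.1 percentiles.

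Whether the injected activity changed these genes was asked by comparing each irradiated group with the 4 controls in 1 limma fit over 36 arrays. Calls needed a Benjamini-Hochberg adjusted p under 0.01 together with a change of 1.5-fold or more, the limits of the study. At these limits the study, which does not state its test, reported regulated transcripts in every irradiated group. It listed Col2a1 among the molecules behind a predicted upstream regulator at 4700 kBq. In the fit used here, none of the 14 probes was called at any of the 8 activities, and the background was the same, 0% of all 30367 probes in each comparison. At an unadjusted p under 0.05, 0 of the 14 passed in each comparison, against 3.22% of all probes at 9 kBq, 3.36% at 88, 2.36% at 170, 1.12% at 260, 13.7% at 340, 1.64% at 760, 4.18% at 1300 and 1.66% at 4700 kBq. An F-test over the 9 groups called 0 of the 14, with an adjusted p of 0.989 for each, against 0.0132% of all probes, and 0 had an unadjusted p under 0.05, against 2.69%. These p-values rest on 1 spread between rats per probe, pooled over the 9 groups and moderated over all probes by limma. The groups differed in spread, and the SD of Acan ran from 0.24 at 4700 kBq to 4.27 at 260 kBq. For the leads the SE of a difference reached 2.29 on the log2 scale, for Col10a1.

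As measured against all 4 controls, the medians at 9 and 4700 kBq were the furthest from 0. At 9 kBq the median difference of the lead probes was 1.81 on the log2 scale, against 0.07 for all probes, and 8 of 9 genes were higher. The differences ran from -0.11 for Col11a2 to 2.62 for Col10a1 (SE 2.29, limma adjusted p = 0.999). At 4700 kBq the median difference was -2.49, against 0.09 for all probes, and 8 of 9 genes were lower. They ran from -4.08 for Col10a1 (SE 2.29, limma adjusted p = 1) to 0.09 for the lead probe of Col9a1, whose other probes had -1.05 and -0.98. Acan was not well above background in any of the 4 rats at 4700 kBq, against 3 of 4 controls that were (means -8.43 and -5.48, limma adjusted p = 1). The dim irradiated arrays were set to the dimmest signal that the scanner called well above background on each array. Against that floor the control mean of Acan was 4.05-fold higher. For Hapln1, measured above background in 2 of 4 controls, it was 3.02-fold higher (means -8.46 and -5.90, limma adjusted p = 1). The control means include dim arrays, whose levels are themselves upper bounds, so neither fold is a lower bound. Both also depended on single controls. Without control rat 3 the fold was 1.5 for Acan and 1.06 for Hapln1, and without control rat 1 it was 9.29 and 6.09. The second Hapln1 probe gave 1.57-fold with all controls, and its control mean lay below the floor without control rat 3.

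Only Col9a2 at 4700 kBq had no overlap with the controls. Its 4 rats had -4.37, -3.72, -3.64 and -4.68, and the controls -3.58, -2.99, 0.99 and -2.94, so that the highest irradiated rat lay just below the lowest control, a gap smaller than the spread in either group. That is 1 of 14 probes, against 1.27% of all probes in this comparison. The two-sided exact permutation p was 0.0286, the smallest that 4 against 4 rats can give, and limma's adjusted p was 1. In the other 7 comparisons 0 of 14 probes were free of overlap, with backgrounds of 1.73% at 9 kBq, 1.85% at 88, 1.24% at 170, 1.07% at 260, 4.35% at 340, 1.64% at 760 and 1.26% at 1300 kBq.

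The other groups were closer to the controls. The median difference was -0.86 at 88 kBq, from -1.39 for Col10a1 to -0.71 for Matn1, and -0.82 at 170 kBq, from -1.03 for Col11a2 to 0.03 for Col9a1. At 260 kBq it was 0.09, from -0.75 for Col10a1 to 0.89 for Matn1. At 340 kBq it was 0.64, from -0.48 for Col9a1 to 1.83 for Hapln1, while the other Col9a1 probes had 1.22 and 1.86. Neither sign nor size followed the activity through these groups. At 760 kBq it was -0.02, from -0.36 for Col10a1 to 0.91 for Hapln1, and at 1300 kBq -0.44, from -0.94 for Comp to 0.39 for Col9a1. All comparisons share the same 4 controls, so control rats 1 and 3, at opposite ends, entered every difference. Without control rat 3 the median difference was 3.101 at 9 kBq, 2.17 at 340 kBq and -1.05 at 4700 kBq, and at the other activities it lay between 0.15 and 1.17. Without control rat 1 it was 0.66 at 9 kBq and -3.57 at 4700 kBq, and at the others it lay between -1.99 and -0.20. The order of the groups by their distance from the controls thus depended on single control rats.

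**Figure D3:**
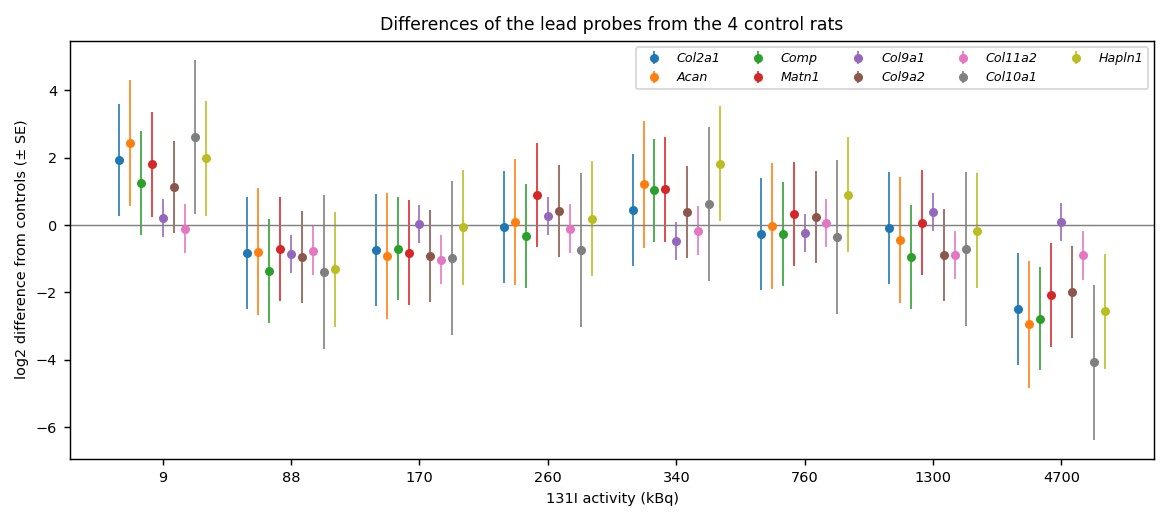
Difference of each irradiated group from the controls (vertical axis, log2, points with SE from limma, n = 4 rats a group) for the lead probes of the 9 genes, by injected activity in kBq. The medians are 1.81 at 9 kBq and -2.49 at 4700 kBq, and no difference was called.

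With the Iyd level of the array added to the comparison, the median difference was 0.19 at 9 kBq, -1.28 at 88, -1.42 at 170, -0.09 at 260, -0.71 at 340, -0.28 at 760, -0.80 at 1300 and -2.44 at 4700 kBq. Its sign turned at 260 and 340 kBq, and the 9 kBq group no longer stood out. Again 0 of 14 probes were called at any activity. At 4700 kBq 3 of 14 then had an unadjusted p under 0.05 (smallest 0.0175, limma adjusted p = 0.995), against 2.86% of all probes. At 9 and 340 kBq 3 of 4 rats had low Iyd, against 1 of 4 at 4700 kBq and among the controls. The study listed Iyd itself among its downregulated genes at 9 and 340 kBq. The level held fixed here may thus itself differ with the activity.

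The members were next described against the follicular signal. Col2a1 had a median of 0.46 in the 18 rats with low Iyd and of -4.55 in the 18 with high Iyd, but the ranges overlapped, from -4.29 to 1.65 and from -5.32 to 0.17. Col10a1 had medians of 0.46 and -6.57, and Acan of -2.74 and -8.25. In a fit with 1 mean per group, so that only rats of the same group were compared, 10 of 14 probes had a negative slope on the Iyd level at an adjusted p under 0.01, and 0 a positive one. Among all probes 23.5% had a negative and 18.3% a positive slope, 41.8% in all. The slope of Col2a1 was -0.38 (SE 0.08, limma adjusted p = 0.000343) and that of Col10a1 -0.56 (SE 0.11, limma adjusted p = 8.26e-05). Col11a2 (0.05 for its lead probe), the lead probe of Col9a1 (-0.06) and the second probe of Hapln1 were not called. After normexp background correction 12 probes were called, the lead probe of Col9a1 (-0.0867, limma adjusted p = 0.00967) and the second probe of Hapln1 (-0.12, limma adjusted p = 0.00762) among them.

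Inside each range of Iyd, the relation of Col2a1 with Iyd did not pass the test. In the low range 14 of the 18 Iyd values are only upper bounds, so that r there cannot show whether a relation exists. Within the low range r between Iyd and Col2a1 was 0.01 (rho -0.08, permutation p = 0.957 and 0.756, adjusted 0.994 and 0.887), and -0.31 without the 2 rats farthest from the median of Iyd. Within the high range it was -0.45 (rho -0.34, permutation p = 0.0632 and 0.169, adjusted 0.101 and 0.241), and -0.33 without 2 rats. On the 5 slides, with 6 to 8 arrays each, r lay between -0.95 and -0.41. With the level of Tg in place of Iyd, 0 of the 14 probes were called in either direction. The share of all probes called on Tg is not given here, so this 0 cannot be set against the calls on Iyd. Rats such as 760 kBq rat 1, with Tg at 6.83 and Col2a1 at 0.96, had high levels of both.

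**Figure D4:**
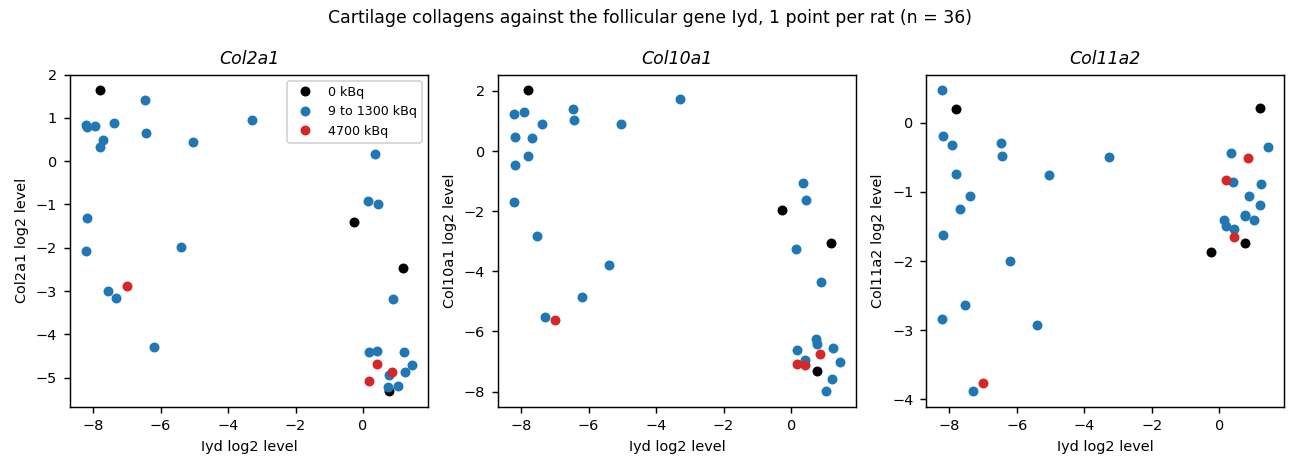
Log2 levels of Col2a1, Col10a1 and Col11a2 (vertical axes) against that of the follicular gene Iyd (horizontal axes) in the same array, 1 point per rat, n = 36 (black 0 kBq, blue 9 to 1300 kBq, red 4700 kBq). Iyd leaves a gap between -3.28 and -0.26. Col2a1 and Col10a1 reach their highest levels left of it, and within each side the levels still differ widely.

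The members also followed each other. Over 36 rats the 21 pairs among the 7 lead probes other than those of Col9a1 and Col11a2 had r between 0.84 and 0.98, with a median of 0.93. Against Col2a1, r was 0.97 for Col10a1, 0.96 for Acan, 0.94 for Comp, 0.93 for Matn1, 0.89 for Col9a2 and 0.86 for Hapln1. Spearman's rho was between 0.83 and 0.95 for these 6, each with a permutation p of 1e-05, the smallest that 100000 permutations can give (adjusted 2.5e-05 and 3.08e-05). Without the 2 rats farthest from the median, r was 0.84 to 0.97. Within slides the lowest r of the 6 was 0.65, for Hapln1, and within the 2 scan days 0.85, for Col9a2. These levels share the array and its scaling, and 80 relations of this kind were computed, over which p-values were adjusted.

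In the fit within groups, 10 of the 13 other probes had a positive slope on the Col2a1 level and 0 a negative one, against 5.24% of all probes positive and 9.3% negative. Col10a1 rose by 1.33 log2 units per unit of Col2a1 (SE 0.07), Acan by 1.08 (0.06), Hapln1 by 0.88 (0.10), Comp by 0.87 (0.06), Matn1 by 0.87 (0.07) and Col9a2 by 0.73 (0.07). The limma adjusted p of these 6 was between 6.38e-14 and 2.05e-06. Since Iyd and Col2a1 were themselves related, both were put in 1 fit, an analysis added after the values had been seen. Beside Iyd, 9 of the 13 probes kept a called positive slope on Col2a1, while only 38 of all 30365 probes did (0.125%). Beside Col2a1, no member probe had a called negative slope on Iyd, against 14.8% of all probes. Col2a1 is itself a member that most of the others followed, and 13 probes are few. This 0 therefore cannot show that the members lack a relation with Iyd.

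The type IX chain Col9a1 was measured by 3 probes that disagreed. Its lead probe, a single spot on the array, had r = 0.24 with Col2a1 and a slope of 0.09 (SE 0.06, limma adjusted p = 0.306). The other 2 probes had r = 0.89 and 0.85 with Col2a1 and 0.95 with each other, but 0.34 and 0.29 with the lead probe. Both were called beside Iyd, with slopes of 0.50 (SE 0.07) and 0.58 (SE 0.09) on Col2a1. The gene thus had no single pattern on this array. Hapln1 also had a second, dimmer probe, well above background on 17 arrays, that was called on Col2a1 alone (0.38, SE 0.09, limma adjusted p = 0.00261) and not beside Iyd (adjusted p = 0.457).

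Col11a2, a chain of the type XI collagen that forms fibrils with type II, stood apart from the others by both of its probes (r = 0.92 with each other). Over all rats its lead probe had r = 0.36 with Col2a1 (rho 0.42, permutation p = 0.0318 and 0.0102, adjusted 0.0553 and 0.0194), and 0.28 without the 2 farthest rats. Among the 18 rats with low Iyd, r was 0.87 (rho 0.84, permutation p = 2e-05 and 4e-05, adjusted 4.71e-05 and 0.0001), and among those with high Iyd 0.07 (rho 0.10, permutation p = 0.777 and 0.702, adjusted 0.91 and 0.851). The second probe gave 0.91 and -0.01. The difference between the 2 ranges was not tested. In the fit with both levels, the slopes on Iyd were 0.18 (SE 0.05, limma adjusted p = 0.00725) and 0.14 (SE 0.04, adjusted p = 0.00367), the only called positive slopes among the members. These 2 of 13 member probes, both of 1 gene, are near the share of all probes called positive, 12.7%. The slopes of Col11a2 on Col2a1 were 0.33 and 0.29 and were not called (limma adjusted p = 0.294 and 0.0615). With the rat number as a replicate block both Iyd slopes lost their call (adjusted p = 0.021 and 0.0117). Both also lost it without 1300 kBq rat 1, which had the lowest level of both probes (slopes 0.14 and 0.12, adjusted p = 0.0418 and 0.0215), and without 4700 kBq rat 3 (0.14 and 0.12, adjusted p = 0.024 and 0.0123). The lead probe alone lost it with array weights (0.15, adjusted p = 0.0397) and without each of 170 kBq rats 2 and 4, 340 kBq rat 3, 4700 kBq rat 2 and control rat 4 (slopes 0.16 to 0.17, adjusted p = 0.0103 to 0.0163).

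**Figure D5:**
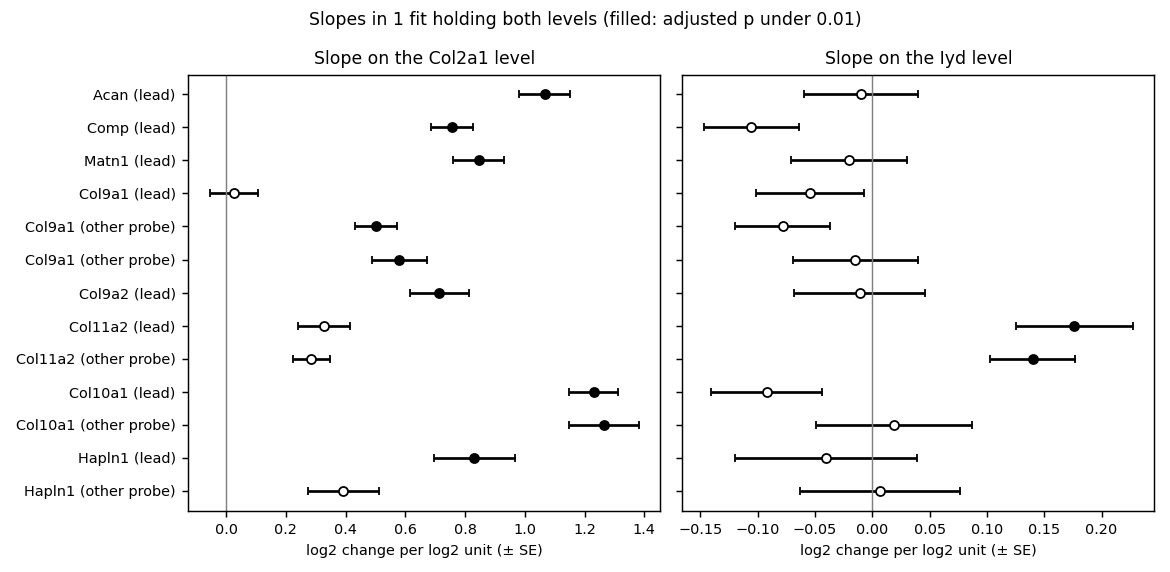
Slopes with SE (horizontal axes, log2 change per log2 unit) of 13 member probes on the Col2a1 level, left, and on the Iyd level, right, from 1 limma fit of 36 arrays with 1 mean per group and both levels. Filled points have an adjusted p under 0.01. On Col2a1 9 probes are filled, from 0.50 to 1.27, and on Iyd the 2 probes of Col11a2 at 0.18 and 0.14.

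Other cartilage genes were read in the same fit. Of 16 measured genes in a list of other cartilage matrix genes, 10 had a called positive and 3 a called negative slope on Col2a1. Among all probes 5.24% were called positive and 9.3% negative. The median slope was 0.33 for the list against 0.01 for all probes. Cnmd, the cartilage protein chondromodulin, had the highest (1.19, SE 0.07) and Crtac1 the lowest (-0.85, SE 0.18). Beside Iyd, 7 stayed positive (Chad, Cnmd, Clec3a, Scrg1, Fmod, Mia and Cytl1) and 0 negative. The 3 genes called negative without Iyd were not called beside it, and the difference between the fits was not tested.

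Genes that regulate, make or turn over the matrix were read against the share of all probes called on Col2a1 in either direction, 14.5%. Of 5 measured regulators and receptors 0 were called in either direction on Col2a1, from 0.22 for the transcription factor Sox6 to -0.25 for the cation channel Trpv4. Of 7 genes for sulfation and chain synthesis, the sulfate transporter Slc26a2 was called positive (0.23) and the sulfotransferase Chst11 negative (-0.41). Of 5 proteases, Mmp3 was called positive (0.33), and the lowest slope was that of Adamts4 (-0.10). Beside Iyd, 0 of the genes in these 3 lists were called, which is near the share of all probes called positive in that fit, 0.125%. Sox9 and Sox5 were not analysed here.

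Genes of neighbouring tissues were read in the same fit, and their part in the result was not tested. Of all probes, 5.24% were called positive and 9.3% negative on Col2a1. Of 5 bone matrix genes 2 were called positive on Col2a1, Ibsp (0.38) and, named after its value was seen, Bglap (0.37), with Alpl lowest (-0.06), and of 5 tendon genes 0, from 0.14 for Col1a1 to -0.07 for Scx. Of 11 follicle genes 10 were called negative, from -0.59 for Duox2 to -1.28 for the iodide transporter Slc5a5, with Iyd at -1.11. The slope of Tg, -0.66 (SE 0.27, limma adjusted p = 0.061), was the 1 not called. Of 5 C cell genes 4 were called negative, with Calca lowest (-1.66). Of 3 parathyroid genes 1 was called, the calcium receptor gene Casr (-1.09), named after its value was seen, while Pth had the lowest slope (-1.37, limma adjusted p = 0.0189) and Gcm2 the highest (-0.50). Of 7 airway genes Sftpd was called negative (-1.05), and Bpifa1 was highest (0.22). The list of 6 squamous epithelium genes had high slopes, from 0.84 for Krt5 to 1.24 for Ly6d, but 0 were called (SE 0.24 to 0.39). Beside Iyd, 0 of all genes in these lists were called on Col2a1. Since only 0.125% of all probes were called positive in that fit, this 0 is near the background.

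Muscle, fat and blood genes were read against the 5.24% of all probes called positive. None of 6 slow muscle genes was called, from 0.10 for Tnnc1 to 0.53 for Myl3, and none of 9 fast muscle genes, from 0.23 for Pvalb to 0.45 for Myh2. Of 4 smooth muscle genes 2 were called positive, with Smtn highest (0.40) and Cnn1 lowest (0.14). Adipose (0.08 for Cfd to -0.95 for Ucp1) and lymphoid genes (0.29 for Dntt to 0.04 for Cd79b) had 0 called. Of 3 erythroid genes 2 were called positive, and slopes ran from -0.15 for Slc4a1 to 0.35 for Alas2. The summed level of the 6 squamous genes ranged from -2.55 to 8.84 between rats, a sum in which Cnfn was the brightest probe on average.

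The 10 genes most like the members were sought among 14799 probes by their correlation with the mean of the 9 lead probes over the 36 rats, as a description. They were Clec3a (r = 0.97), Cnmd (0.97), Scrg1 (0.97), Serpina1 (0.96), Chad (0.955), Grem1 (0.95), Cytl1 (0.94), Frzb (0.94), Mug1l1 (0.93) and A2m (0.90). Of these, Clec3a, Cnmd, Scrg1, Chad and Cytl1, were in the list of cartilage matrix genes. Grem1 and Frzb encode secreted antagonists of bone morphogenetic protein and Wnt signals, and Serpina1, Mug1l1 and A2m encode protease inhibitors. Serpina1 ranged from -6.18 to -0.73 and Grem1 from -7.91 to 2.04. Mug1l1 and A2m belong to 1 family of similar sequences, so their probes may share transcripts.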

How the data were processed

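Arrays and groups were taken from the sample labels. The authors deposited, for each of 36 arrays, scanner output in which the processed signal is an intensity with background subtracted (Agilent Feature Extraction 10.7.3.1), and a matrix of normalized intensities, used as an alternative. Partek is named per the labels, with no version. Control and outlier spots were left out, the log2 75th percentile was subtracted and repeated spots were averaged to 1 value per probe. Probes were named through RefSeq accessions (17998 of 30367 matched). The 2 Col10a1 probes were named from the study's own probe table. Fits used limma 3.58.1 in R 4.3.3 on all 30367 probes, with Benjamini-Hochberg adjustment, and Python 3.11.15 with numpy 2.4.6 and pandas 2.3.3. The fits were also run on simulated data with independent noise, with changes planted only in probes with an SD within groups under 1. The median SD of the lead probes was 2.28, so that run does not show how well changes in them would be found. Genes were named by a rule: lead probes, the highest and lowest member of each contrast, the highest and lowest gene of each list, and the 10 most alike. The value of 1 gene among the lists is not reported here. The members and lists were chosen with earlier results of these data known. The alternatives were quantile normalization, median centring, normexp (offset 50), a filter on dim probes (21523 kept), the deposited matrix, slide or rat number as a block, 2-group fits, trend and robust options, array weights, an adjusted p under 0.05, no group term, the mean of a gene's probes, and leaving out each rat. The fits with both levels, with Iyd in the contrasts and with Tg in place of Iyd were chosen after seeing the data. Precision is limited by there being 4 arrays per group.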

Additional observations from a re-analysis of the deposited data

Results flagged for a closer look

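Among the member probes, 6 of 126 groups of 4 rats held 1 rat far from the others by Dixon's criterion. That is near the rate of chance flags, about 1 group in 20, and these groups share rats and probes that moved together. In 3 genes this was rat 2 at 88 kBq. Its Comp level was 0.31, against -5.09 to -4.20 in the other 3 rats, its Matn1 level -2.12, against -6.46 to -6.10, and its Hapln1 level -2.67, against -8.78 to -8.71. The same rat stood apart in 1 of the dimmer Col9a1 probes, at -3.48 against -6.98 to -6.50. In that probe 4700 kBq rat 3 also stood apart, at -5.45 against -7.05 to -6.78. For Col9a2 it was control rat 3, at 0.99 against -3.58 to -2.94.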

How the results depend on the processing

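No alternative called a member in a contrast or among the 9 groups. Probes of the whole array called in at least 1 contrast, 0 as reported, numbered 5 after quantile normalization, 4 after normexp correction, 5 in the authors' matrix, 4 after the filter on dim probes, 390 with array weights, whose estimation stopped before convergence, 11 at an adjusted p under 0.05, 7 with Iyd as a covariate and 0 to 6 without single rats. With array weights the median of the lead probes at 760 kBq was 2.72, and the differences of Matn1 at 88 kBq (0.22) and Col10a1 at 260 (2.16) and 760 kBq (3.60) turned. Col9a1 at 170 kBq turned after quantile normalization (-0.0941), median centring (-0.0455), in the authors' matrix (-0.0984) and with slide as a block (-0.0899), and at 4700 kBq with slide as a block (-0.0062). The causes were not tested. Leaving out single rats turned Col11a2 at 9 kBq (-0.46 to 0.23), Col9a1 at 170 (-0.30 to 0.35), 340 (-0.86 to 0.11) and 4700 kBq (-0.31 to 0.65), Col10a1 at 88 (-3.01 to 0.15), 260 (-2.33 to 0.81) and 760 kBq (-1.94 to 1.17), Matn1 at 88 (-1.98 to 0.66) and 260 kBq (-0.38 to 2.26), Hapln1 at 760 kBq (-0.10 to 2.41) and Comp at 1300 kBq (-2.07 to 0.22). None of these was called.

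Member probes called on Col2a1 numbered 9 to 10 without single rats, and those on Iyd 9 to 11 (12 after normexp correction and 11 with no group term). The shares of all probes called in these alternatives are not given. Member probes called on Col2a1 beside Iyd numbered 8 to 9 without single rats, with 26 to 44 probes of the array. With Tg in place of Iyd, 0 member probes were called on the follicular level, for which the share of all probes is not given. On Col2a1 beside Tg, 136 probes of the array, 9 of them member probes, were called. Beside Col2a1, 1 member probe had a called negative Iyd slope at an adjusted p under 0.05, and 0 to 1 without single rats. The rat numbers did not pair the rats: of 144 same-numbered pairs, 57 had deviations correlated over 0.1, with a median of -0.03. With the rat number as a replicate block, 0 member probes were called in the contrasts, 10 on Iyd, 10 on Col2a1 and 9 on Col2a1 beside Iyd, with 31 probes of the array. Signal over background limited Acan and Hapln1 most, each dim on 16 arrays. Over the alternatives with all rats, the slope of the lead probe on Col2a1 ran from 0.66 to 1.11 for Acan and from 0.49 to 0.93 for Hapln1. It ran from 0.85 to 0.89 for Comp, 0.69 to 0.88 for Matn1, 0.66 to 0.74 for Col9a2 and 1.13 to 1.37 for Col10a1.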

Other observations

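Of the 38 probes with a called positive slope on Col2a1 beside Iyd, 9 were member probes and 8 had no symbol here. The other 21 stood for 17 named genes, of which 7 were in the list of other cartilage matrix genes. Those outside it, named after their values were seen, included Itga10, a collagen-binding integrin chain of chondrocytes (0.65, SE 0.09, limma adjusted p = 0.000417), and Tnn, the tenascin N gene (0.56, SE 0.09, limma adjusted p = 0.00164). They also included Sln, the sarcolipin of muscle (1.14, SE 0.20, limma adjusted p = 0.00365), and Actc1, the cardiac muscle actin (0.83, SE 0.14, limma adjusted p = 0.00349), while 0 of the 6 slow and 0 of the 9 fast muscle genes were called. The 1 probe of the array with a called negative slope was ST7 (-0.12, SE 0.02, limma adjusted p = 0.0079).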
